A study of Canis lupus familiaris with 12 samples.

Results

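The genes described here make prostaglandins: PTGS1 and PTGS2, the constitutive and the inducible cyclooxygenase, PTGES, a synthase of prostaglandin E2, and PTGDS, a synthase of prostaglandin D2. Their messenger RNA was measured in Mi/CMM1, a cell line grown from an oral melanoma of a dog. All probes whose transcript accession belongs to a dog RefSeq transcript of these 4 genes were taken, whatever their signal. They were 6 of the 43603 probes on the array, with 2 probes for PTGS1 (A_11_P051156 and A_11_P0000019749), 2 for PTGES (A_11_P050041 and A_11_P0000025517), 1 for PTGS2 (A_11_P050666) and 1 for PTGDS (A_11_P0000019852). Where a gene had 2 probes they are called its brighter and its dimmer probe. Genome positions were not used here.

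There were 12 one-colour arrays (Cy3 label), 3 for each drug (piroxicam, carprofen, robenacoxib) and 3 of control cells labelled as not treated, for which no vehicle is named. All groups were cultured in serum-containing medium, and the series design calls the replicates of a condition biological without saying how the cultures were separated, so the p-values measure the spread between these arrays. The drugs were given at their half-maximal inhibitory concentrations, which differ. For piroxicam the sample labels say 116 µM, for carprofen 779 µM and for robenacoxib 156 µM, each over 6 h. The treatment protocol swaps the first 2 of these (779 µM piroxicam, 116 µM carprofen) and has the cells harvested after 24 h. Comparisons between drugs below are therefore comparisons of the treatments as given, at concentrations that were not matched. As a model, Mi/CMM1 is 1 cell line.

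Cyclooxygenases turn arachidonic acid, released from membrane lipids by phospholipases, into prostaglandin H2, and terminal synthases such as PTGES and PTGDS convert that intermediate into the individual prostaglandins, which then act on receptors of the cell surface. PTGS1 is present in many resting tissues, whereas PTGS2 is switched on by cytokines, growth factors and mitogens and is found at raised levels in many tumours, oral melanomas of dogs among them. PTGES is an inducible enzyme that is often coupled to PTGS2. Piroxicam blocks the enzyme activity of both cyclooxygenases, carprofen acts more on PTGS2 than on PTGS1 in dogs, and robenacoxib is selective for PTGS2. The arrays measure transcripts, not enzyme activity or prostaglandins.

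Signals below are given as scaled signal, the background-subtracted intensity of a probe with each array's 75th percentile set to 1000, and changes are differences of log2 scaled signal. Between 66.2% (piroxicam 3) and 80.1% (carprofen 2) of the spots of an array were well above background. The unscaled 75th percentile lay at 2277 to 2344 on the piroxicam arrays, 2246 to 2494 on the carprofen arrays, 2170 to 2269 on the robenacoxib arrays and 2076 to 2138 on the control arrays. Arrays of different groups correlated at 0.9901 to 0.9975 across probes, arrays of the same group at 0.9946 to 0.9982. The arrays came on 3 slides, each scanned in 1 session, so that slide and scan are confounded: the controls shared slide 1 with carprofen 1, slide 2 carried piroxicam 1 and 2 beside carprofen 2 and 3, and piroxicam 3 lay on slide 3 beside the robenacoxib arrays. Piroxicam 3 also had the brightest negative-control spots (95th percentile 11.7, against 3.39 to 6.24 on the other arrays). Member differences from control that rest on it are therefore also given without it, and correlations are not. Of the melanocyte markers, 5 of 13 had a named probe. MITF, the master transcription factor of melanocytes, was well above background on all 12 arrays, while TYR, the tyrosinase of pigment synthesis, and EDNRB, a melanocyte receptor, were well above background on none. MC1R was well above background on 8 arrays and KIT on at most 4.

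PTGS2 was the member whose transcript changed with all 3 drugs, and it did so in opposite directions. It fell with piroxicam and rose with carprofen and with robenacoxib. Its scaled signal was 79.1, 77.1 and 71.4 on the piroxicam arrays. It was 151, 146 and 146 on the carprofen arrays and 128, 138 and 130 on the robenacoxib arrays, against 105, 111 and 104 on the control arrays. No array of 1 group reached into the range of another, and the order from high to low was carprofen, robenacoxib, control and piroxicam. The unscaled signals, 167 to 182 with piroxicam, 330 to 364 with carprofen, 277 to 313 with robenacoxib and 216 to 233 in control, stood in the same order and did not overlap either. The probe was well above background on all 12 arrays, with an error of 10% to 10.9% by the scanner software's own estimate. In a cell line extract, fewer cells with a transcript and less transcript per cell cannot be told apart.

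With piroxicam, PTGS2 averaged 75.9 ± 4.0, against 107 ± 3.67 in control (scaled signal, SD, n = 3 each). That is a log2 change of -0.49 (95% interval -0.60 to -0.39), or 1.41-fold lower, with an adjusted p = 0.000108 from limma, and -0.45 without piroxicam 3. PTGS2 was the only 1 of the 5 tested member probes called with piroxicam, where 28% of all 31993 tested probes were called and 16.1% were called lower. With carprofen, PTGS2 averaged 148 ± 3.14 and was 1.39-fold higher than control (log2 change 0.47, 95% interval 0.37 to 0.57, adjusted p = 0.000111). It was again the only 1 of the 5 member probes called, against 32.8% of all tested probes called and 13.3% called higher. With robenacoxib, PTGS2 averaged 132 ± 5.43 and was 1.23-fold higher than control (log2 change 0.30, 95% interval 0.20 to 0.41, adjusted p = 0.00193). In that comparison 22.2% of all tested probes were called, 9.57% higher and 12.6% lower. Groups that do not overlap were common on these arrays: 26.5% of tested probes were lower on every piroxicam than on every control array, 19.5% were higher on every carprofen array and 16.6% were higher on every robenacoxib array. The size of the PTGS2 changes, between 0.30 and 0.49, lay above the median absolute log2 change among called probes, which was 0.21 for piroxicam and 0.20 for each of the other two drugs.

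**Figure D1:**
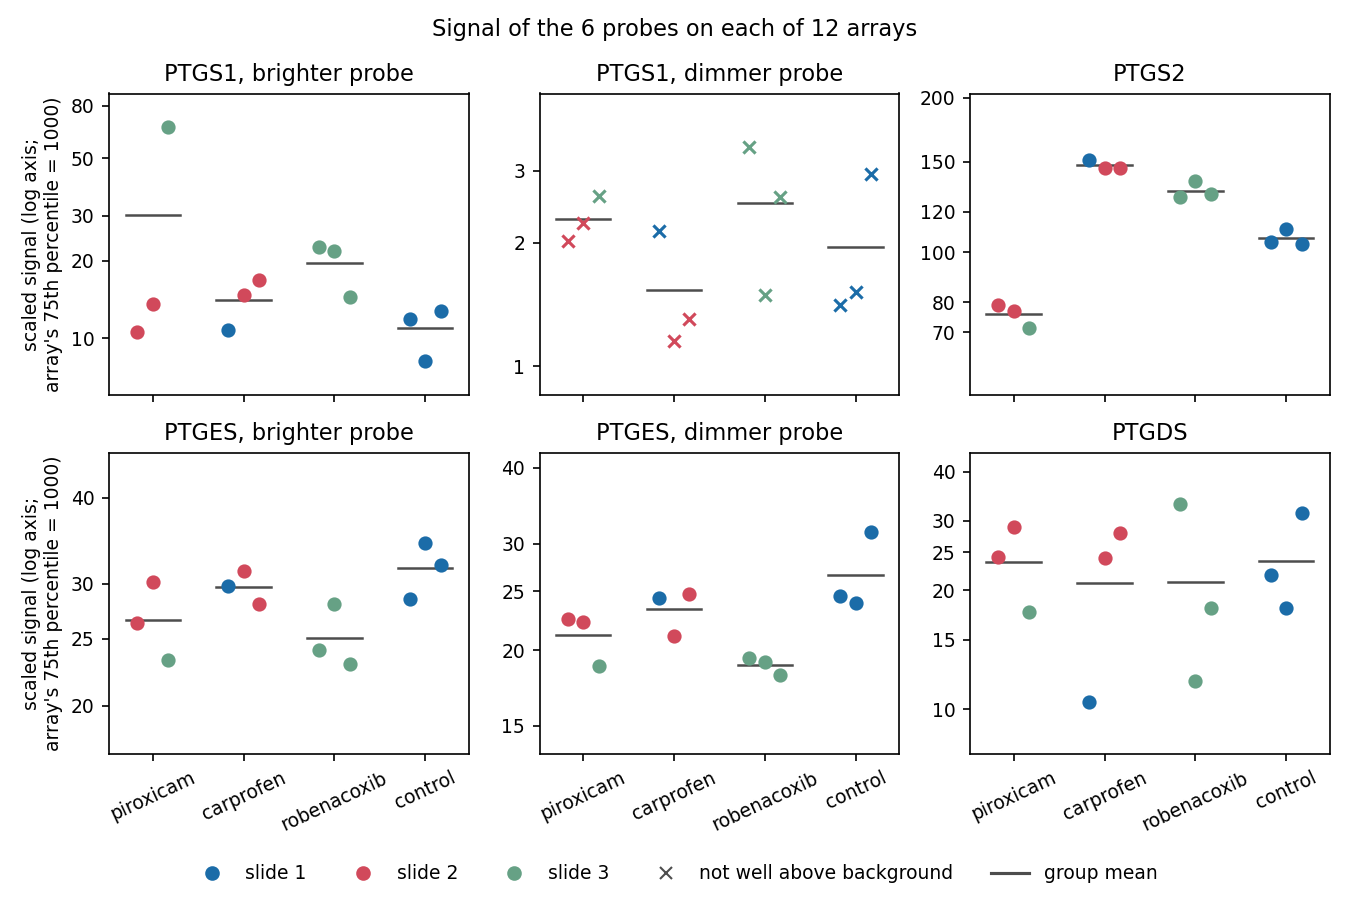
Scaled signal (log axis, array's 75th percentile set to 1000) of the 6 probes on each of 12 arrays, in columns for piroxicam, carprofen, robenacoxib and control; colours mark the 3 slides, crosses mark spots not well above background and lines mark the means of 3 arrays. PTGS2 separates the 4 groups, the brighter PTGS1 probe has 1 high value of 66.2 on piroxicam 3, and the dimmer PTGES probe is lowest, at 18.2 to 19.4, on the 4 arrays of slide 3.

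The slides bear on these differences, because the controls shared a slide with carprofen 1 alone. On slide 1, PTGS2 stood at 151 on carprofen 1, against 104 to 111 on the controls. A fit that held slide as a block put the piroxicam change at -0.40 (adjusted p = 0.0289), the carprofen change at 0.51 (adjusted p = 0.00196) and the robenacoxib change at 0.49 (adjusted p = 0.0561), so the robenacoxib call was lost while its value moved up by over 1.5 times. Scaled to the transcripts spiked in before labelling, PTGS2 changed by -0.33, 0.83 and 0.60 with the 3 drugs in the same order, all called. With normexp background correction and quantile normalization the carprofen value was 0.30 and the robenacoxib value 0.20, also called. The spike-in scaling moved the median log2 change of all tested probes to 0.14 with piroxicam, 0.33 with carprofen and 0.27 with robenacoxib, from -0.02, -0.02 and -0.03. It also moved the share of called probes that were higher to 92.5%, 99.7% and 99.3%, from 42.5%, 40.6% and 43.1%, and scaling to the median moved it to 32%, 21.6% and 41.2%. PTGS2 was thus below the median of all probes with piroxicam and above it with carprofen and robenacoxib. On the log2 scale, spike-in scaling moves all probes of an array by the same amount. It therefore could not change the position of PTGS2 against the median and is no separate test of that position.

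**Figure D2:**
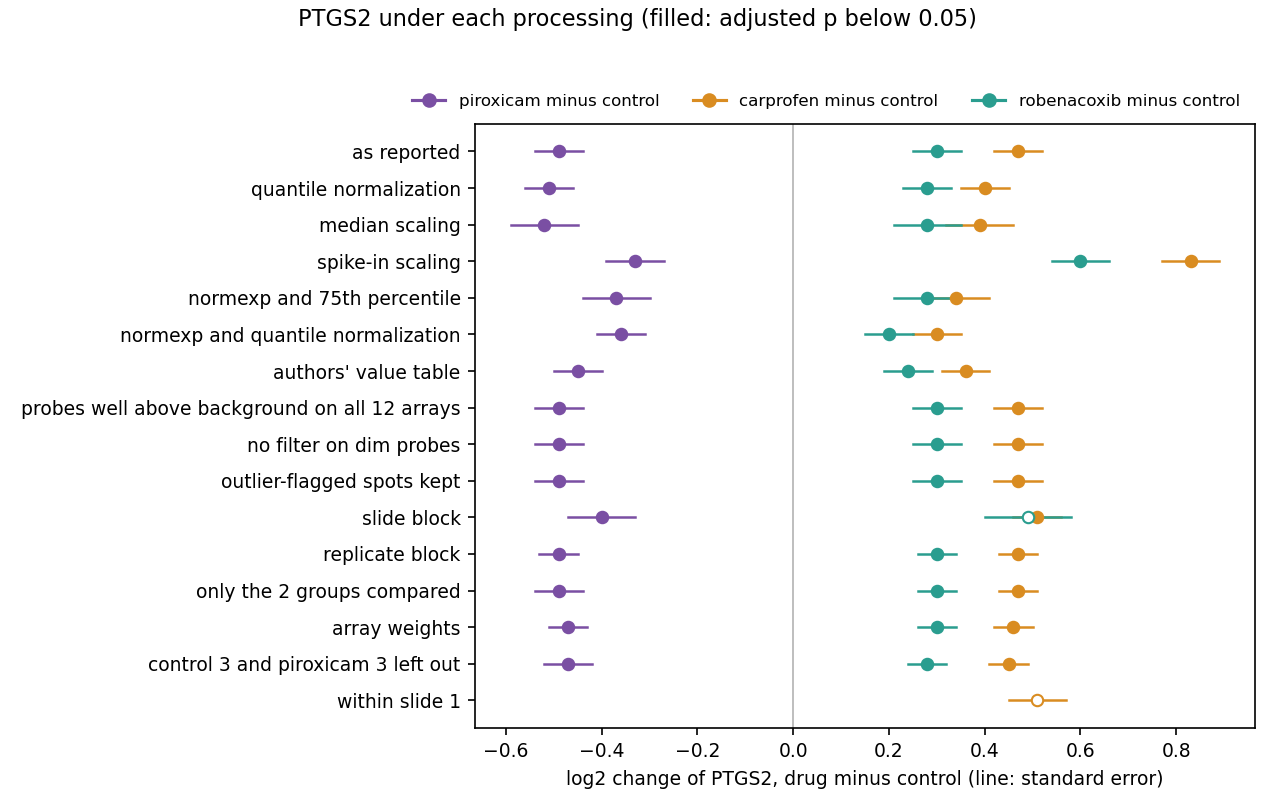
Log2 change of PTGS2 with piroxicam, carprofen and robenacoxib against control (points, with the standard error as a line) as reported and under each alternative processing; filled points have an adjusted p below 0.05. Every piroxicam value lies between -0.52 and -0.33, every carprofen value between 0.30 and 0.83 and every robenacoxib value between 0.20 and 0.60, and the 2 open points are robenacoxib with a slide block and carprofen within slide 1.

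Set against each other, the treatments differed most between carprofen and piroxicam. PTGS2 was 1.95-fold higher with carprofen than with piroxicam (log2 difference 0.96, 95% interval 0.86 to 1.07, adjusted p = 7.99e-07). It was the 1 member probe called, in a comparison where 37.5% of tested probes were called, 18.6% were called higher and 23.4% were higher on every carprofen array. On slide 2, which held 2 arrays of each drug, PTGS2 stood at 146 and 146 with carprofen, against 79.1 and 77.1 with piroxicam (log2 difference 0.90, adjusted p = 0.026 within that slide). Robenacoxib exceeded piroxicam 1.74-fold (log2 difference 0.80, 95% interval 0.69 to 0.90, adjusted p = 6.34e-06). Here too 1 member probe was called, while 27.1% of tested probes were called, 13.9% were called higher and 21.3% were higher on every robenacoxib array. On slide 3, PTGS2 stood at 128 to 138 on the 3 robenacoxib arrays, against 71.4 on piroxicam 3 (log2 difference 0.88, adjusted p = 0.0753 within that slide). Under the slide block, carprofen minus piroxicam was 0.90 (adjusted p = 3.98e-05) and robenacoxib minus piroxicam 0.88 (adjusted p = 0.000271).

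Robenacoxib and carprofen were the closest neighbours in the order of PTGS2 levels. Robenacoxib minus carprofen gave a log2 difference of -0.17 (95% interval -0.27 to -0.06), with an adjusted p = 0.0594 that missed the threshold of 0.05. The 3 robenacoxib arrays were nevertheless all below the 3 carprofen arrays, as were those of 12.5% of tested probes. None of the 5 member probes was called in this comparison, against 8.15% of all tested probes (PTGS2 and both PTGES probes had lower robenacoxib values without overlap). The PTGS2 difference passed with an adjusted p = 0.0398 when piroxicam 3 was left out of the shared estimate of spread and with an adjusted p = 0.0469 over probes well above background on all 12 arrays, and it was -0.02 (adjusted p = 0.93) under the slide block. The 2 drugs shared no slide.

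**Figure D3:**
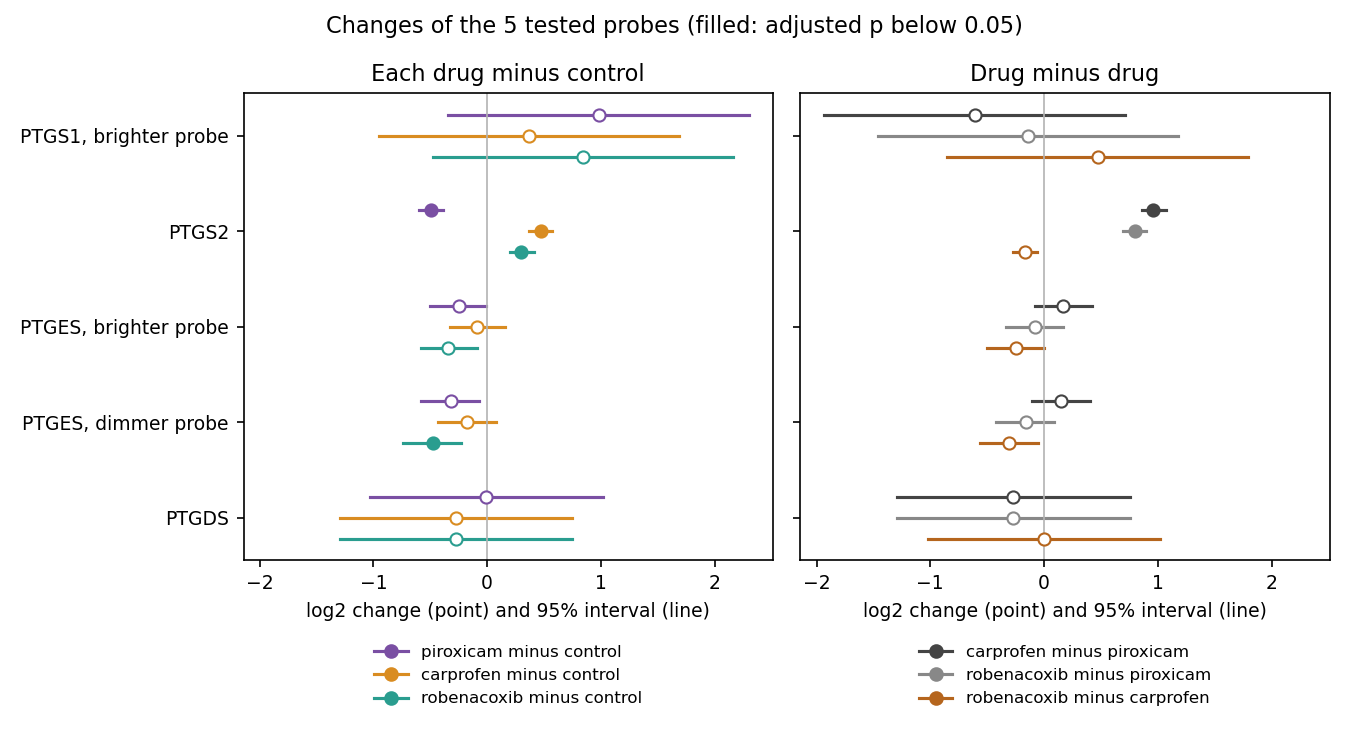
Log2 changes of the 5 tested member probes, each drug minus control on the left and drug minus drug on the right; points are estimates, lines are 95% intervals and filled points have an adjusted p below 0.05. PTGS2 has the 5 filled points with short intervals, the dimmer PTGES probe has 1 filled point (robenacoxib minus control, -0.48), and the intervals of PTGS1 and PTGDS span more than 2 log2 units.

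PTGS1, the cyclooxygenase of resting tissue, was called with none of the 3 drugs. On its brighter probe the scaled signal was 10.6, 13.6 and 66.2 with piroxicam, 10.8, 14.7 and 16.9 with carprofen and 22.6, 21.8 and 14.5 with robenacoxib, against 11.9, 8.16 and 12.8 in control. The value of 66.2 on piroxicam 3 stood apart from the 11 others, which lay between 8.16 and 22.6. The spot had an unscaled signal of 155, against 17.2 to 49.4 on the other arrays, and carried no outlier flag. The 24 spots around it had a median signal of 687 on that array, against 612 to 723 on the other arrays. The brightest of them read 228048 there, against 208793 to 232595 on the other arrays. Its bearing on the PTGS1 spot was not tested. The gap of 1.55 log2 units between that array and the next one was matched or exceeded by 57 of 3235 probes of like signal (1.76%), and the within-group SD of 0.78 compares with a median of 0.33 among those probes.

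The brighter PTGS1 probe differed from control by a log2 value of 0.98 with piroxicam (95% interval -0.34 to 2.30, adjusted p = 0.247), and by 0.16 (adjusted p = 0.728) without piroxicam 3. The value was 0.37 with carprofen (95% interval -0.95 to 1.69, adjusted p = 0.684). With robenacoxib it was 0.84 (95% interval -0.48 to 2.16, adjusted p = 0.356). All 3 robenacoxib arrays lay above all 3 controls, as held for 16.6% of all tested probes. Leaving out piroxicam 3, which widened the shared spread, kept the robenacoxib value at 0.84 and brought its SE to 0.25, against 0.59 with all arrays, for an adjusted p = 0.0458. The 4 arrays of slide 3, which include piroxicam 3, held 14.5 to 66.2, against 8.16 to 16.9 on the other 8 arrays. Under the slide block the robenacoxib value became -2.17 (adjusted p = 0.117) and the piroxicam value -0.39 (adjusted p = 0.66). The block links robenacoxib to the other groups through piroxicam 3 alone. Robenacoxib minus piroxicam, at -0.14 (adjusted p = 0.894) as reported, passed under the block (-1.78, adjusted p = 0.0109). The direction of PTGS1 with piroxicam and with robenacoxib therefore turned with the slide term.

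The dimmer PTGS1 probe was well above background on none of the 12 arrays and was not tested. Its unscaled signal ran from 2.87 to 7.45, and it exceeded the 95th percentile of its own array's negative-control spots on robenacoxib 1 (7.45, against 4.79), robenacoxib 3 (5.80, against 3.48) and control 3 (6.11, against 5.08) and on none of the other 9 arrays. On piroxicam 3 it was 6.09, where that 95th percentile was 11.7 and the lowest signal well above background was 28.5. A rise that stayed below these levels would not be seen. The dimmer probe therefore cannot show whether the high value of the brighter probe had a counterpart. Both probes carry the same transcript accession, and a level not well above background gives only an upper bound for that probe.

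PTGES, the inducible prostaglandin E2 synthase, gave lower mean signals with all 3 drugs than in control on both of its probes, and 1 of the 6 differences passed the test. Over all tested probes 16.1% were called lower with piroxicam, 19.5% with carprofen and 12.6% with robenacoxib, so 1 of 6 lies near the background. On the dimmer probe the scaled signal was 19.4, 19.1 and 18.2 with robenacoxib, against 24.6, 23.9 and 31.4 in control. On that probe PTGES fell with robenacoxib by 0.48 in log2 units, which is 1.40-fold lower (adjusted p = 0.0149, SE 0.11), and no robenacoxib array reached a control, as held for 25% of all tested probes. Piroxicam gave 22.5, 22.3 and 18.8 (log2 difference -0.32, adjusted p = 0.061) and carprofen gave 24.4, 21.1 and 24.8 (-0.18, adjusted p = 0.276). The piroxicam difference passed with quantile normalization (-0.29, adjusted p = 0.0471), with median scaling (-0.35, adjusted p = 0.0389) and over probes well above background on all 12 arrays (-0.32, adjusted p = 0.0493). It stayed uncalled in the other 11 of 14 alternatives. Among these were spike-in scaling (-0.15, adjusted p = 0.331), the slide block (-0.15, adjusted p = 0.728) and the authors' deposited value table (-0.12, adjusted p = 0.376). Without piroxicam 3 the piroxicam difference on this probe was -0.24 (adjusted p = 0.185). The brighter probe read 26.3, 30.2 and 23.3 with piroxicam, 29.8, 31.3 and 28.1 with carprofen and 24.1, 28.1 and 23.0 with robenacoxib, against 28.5, 34.4 and 32.0 in control. Its log2 differences were -0.25 (adjusted p = 0.118), -0.09 (adjusted p = 0.605) and -0.34 (adjusted p = 0.0569), in the same order of drugs. Without robenacoxib 2 the brighter probe passed with robenacoxib (-0.42, adjusted p = 0.0391), as it did without piroxicam 2 (adjusted p = 0.0394) or piroxicam 3 (adjusted p = 0.042). In 9 of the 12 fits that left out 1 array it stayed uncalled with robenacoxib, for example without control 2 (-0.27, adjusted p = 0.172). With piroxicam it passed without piroxicam 2 (-0.35, adjusted p = 0.0472) and stayed uncalled in the other 11 fits. Without piroxicam 3 the piroxicam value was -0.16 (adjusted p = 0.333). The probes thus had the same order of groups in their means, control, carprofen, piroxicam and robenacoxib from high to low, with ranges that overlapped between neighbours on both probes.

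No robenacoxib array shared a slide with a control, so drug and slide cannot be told apart in the PTGES difference. On the dimmer probe the 4 arrays of slide 3, 1 with piroxicam and 3 with robenacoxib, read 18.2 to 19.4, against 21.1 to 31.4 on the 8 arrays of the other slides. Piroxicam 3, at 18.8, lay among the robenacoxib arrays. Under the slide block the robenacoxib difference was -0.14 (adjusted p = 0.853) on the dimmer and -0.06 (adjusted p = 0.945) on the brighter probe. Its SE under the block was 0.25 and 0.24, against 0.11 on each probe as reported. The call on the dimmer probe also ended with spike-in scaling (-0.19), with normexp background correction and quantile normalization (-0.09) and in the authors' deposited value table (-0.14), and the sign turned with normexp and the 75th percentile (0.07). The mean of both probes was fitted on the 75th-percentile scale without a slide term only, so it cannot bear on these losses. In that fit it passed with robenacoxib (-0.41, adjusted p = 0.0101) and with piroxicam (-0.29, adjusted p = 0.0368).

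PTGDS, the lipocalin-type prostaglandin D2 synthase known from brain and cerebrospinal fluid, varied more between arrays of a group than between groups. The scaled signal was 24.3, 28.9 and 17.6 with piroxicam, 10.4, 24.2 and 28.0 with carprofen and 33.1, 11.8 and 18.1 with robenacoxib, against 21.9, 18.1 and 31.4 in control. The highest and the lowest of all 12 values, 33.1 and 10.4, both came from treated cells, and the ranges of all 4 groups overlapped. Its log2 difference from control was -0.01 with piroxicam (95% interval -1.03 to 1.02, adjusted p = 0.995), -0.27 with carprofen (95% interval -1.29 to 0.75, adjusted p = 0.70) and -0.27 with robenacoxib (95% interval -1.29 to 0.75, adjusted p = 0.731). Each of the 3 signs turned when 1 array was left out, to 0.21 with piroxicam without control 3, 0.17 with carprofen without carprofen 1 and 0.08 with robenacoxib without robenacoxib 2. Under the slide block the differences were -1.13 with piroxicam (adjusted p = 0.393), -1.15 with carprofen (adjusted p = 0.178) and -1.0 with robenacoxib (adjusted p = 0.645). The 95% intervals above are wide enough to hold a change as large as that of PTGS2 in either direction. The within-group SD of 0.60 log2 units stood at the 95.8th percentile of 3197 probes of like signal, whose median was 0.27, although the probe was well above background on all 12 arrays and unscaled signals ran from 23.5 to 71.9.

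PTGS2 was the least variable of the members within groups, with an SD of 0.06 log2 units, against a median of 0.09 among 2953 probes of like signal. The brighter and the dimmer PTGES probe had SDs of 0.14 and 0.15, against medians of 0.23 and 0.26 in their signal ranges. The differences that could be resolved therefore varied between members: the SE of a difference between 2 groups was 0.05 for PTGS2, 0.11 for each PTGES probe, 0.45 for PTGDS and 0.59 for the brighter PTGS1 probe.

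Of the genes around this step of the pathway, few carried a named probe, since 3.01% of the probes on the array could be named through the RefSeq table. For the release of arachidonate, 1 of 8 listed genes was named and tested (PLA2G1B, a secreted phospholipase), with no call. Of 9 other prostanoid synthases AKR1C3, which can form prostaglandin F, was the 1 with a named probe and was well above background on no array. For breakdown and export, 1 of 5 genes was tested (SLCO2A1, which takes up prostaglandins), with no call, and none of 9 lipoxygenase genes was named. Of 9 prostanoid receptor genes 4 were tested. Over these 6 tested genes, 1 rose and 1 fell with piroxicam, 1 rose with carprofen and 2 rose with robenacoxib. Over all tested probes 11.9% rose and 16.1% fell with piroxicam, 13.3% rose with carprofen and 9.57% rose with robenacoxib, so 1 of 6 lies near the background. The median log2 change of the 6 was 0.11, 0.16 and 0.18 in that order, against -0.02, -0.02 and -0.03 over all tested probes.

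Among the receptors, PTGFR, which binds prostaglandin F, had a scaled signal of 102, 105 and 107 with piroxicam, 93.4, 90.8 and 83.9 with carprofen and 89.3, 91.1 and 85.4 with robenacoxib, against 76.6, 75.6 and 76.1 in control. PTGFR rose with piroxicam (log2 change 0.46, adjusted p = 9.48e-05), carprofen (0.23, adjusted p = 0.00287) and robenacoxib (0.22, adjusted p = 0.00598). PTGFR thus moved the same way with drugs that moved PTGS2 in opposite ways. In the authors' deposited value table the carprofen and robenacoxib values were 0.08 and 0.09 and were not called, and under the slide block the robenacoxib value was 0.27 (adjusted p = 0.204). PTGER2, a prostaglandin E2 receptor, read 12.1, 9.07 and 7.69 with piroxicam, where 1 of 3 arrays was well above background, against 19.1, 13.9 and 17.8 in control. The fitted fall was 0.83 in log2 units (adjusted p = 0.00453), a size set in part by readings not well above background. The PTGER2 call ended under the slide block (-0.67, adjusted p = 0.197), with normexp and quantile normalization (-0.15, adjusted p = 0.154) and in the authors' deposited value table (-0.28, adjusted p = 0.149). PTGER4, another prostaglandin E2 receptor, rose with robenacoxib by 0.14 (adjusted p = 0.0451), and the call was lost under the slide block (0.09, adjusted p = 0.719).

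**Figure D4:**
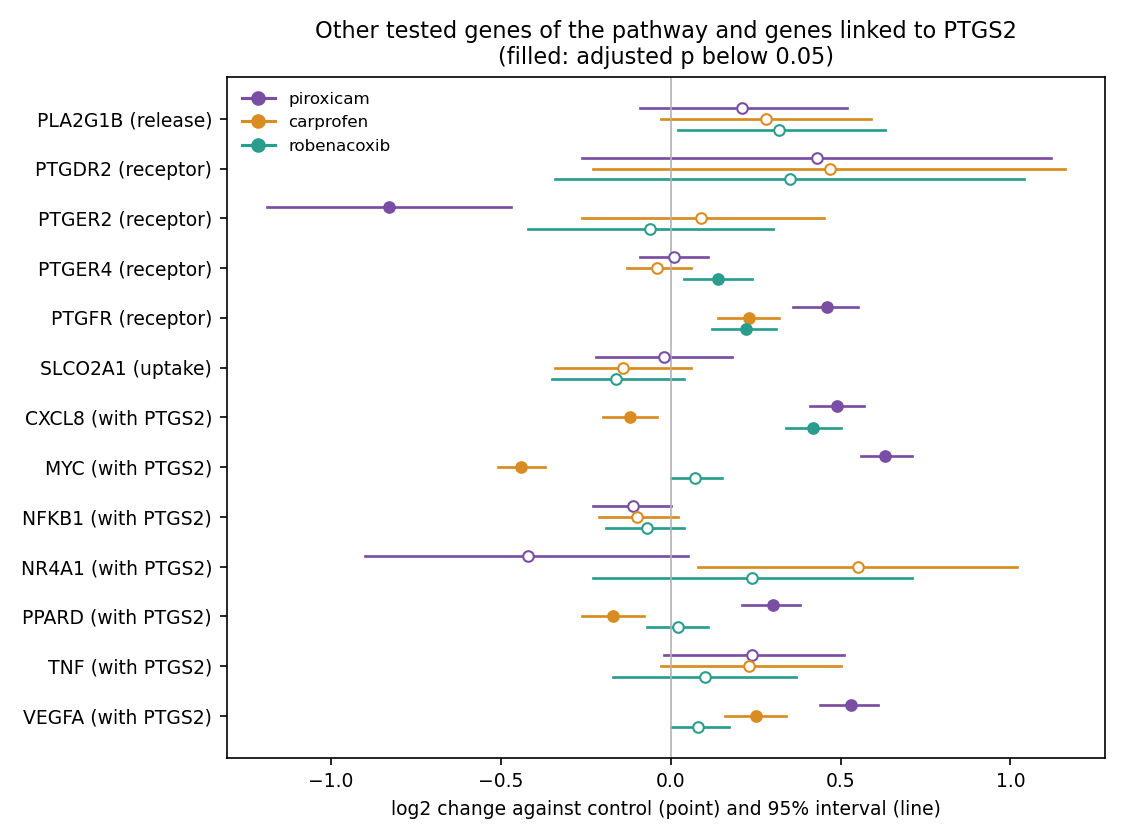
Log2 change against control (points) with 95% interval (lines) for the other tested genes of the pathway and for genes known to act on or be induced with PTGS2, with piroxicam, carprofen and robenacoxib; filled points have an adjusted p below 0.05. PTGFR is filled on the right for all 3 drugs, while MYC lies at 0.63 with piroxicam and at -0.44 with carprofen.

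PTGS2 is one of a group of early-response and inflammatory genes, and 22 genes known to act on it or to be induced together with it were listed, of which 12 had a named probe and 7 were tested. The list was chosen with earlier results of these data known, and each gene is read on its brightest tested probe. The shares of all tested probes below are therefore given for scale and are no test of the list. With piroxicam 4 of the 7 rose and none fell, against 11.9% of all tested probes called higher: MYC (log2 change 0.63), a growth-promoting transcription factor, VEGFA (0.53), a growth factor for blood vessels, CXCL8 (0.49), a neutrophil chemokine, and PPARD (0.30), a nuclear receptor for fatty acids. PTGS2 itself fell in those cells. With carprofen, where PTGS2 rose, 1 of the 7 rose (VEGFA, 0.25) and 3 fell (MYC, -0.44, PPARD, -0.17, and CXCL8, -0.12), against 19.5% of all tested probes called lower. With robenacoxib, where PTGS2 also rose, CXCL8 rose (0.42) and none fell, against 9.57% of all tested probes called higher and 12.6% called lower. VEGFA, not called with robenacoxib as reported (0.08, adjusted p = 0.155), was called higher with spike-in scaling (0.38), in the authors' deposited value table (0.23) and after normexp with quantile normalization (0.22). Over the 7 genes the median log2 change with piroxicam was 0.30, that with carprofen -0.10 and that with robenacoxib 0.08.

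Probes of these genes did not always agree. The second VEGFA probe changed by 0.65 with piroxicam, like the first, but by -0.21 (adjusted p = 0.0147) with carprofen and -0.28 (adjusted p = 0.00603) with robenacoxib. Of the 4 CXCL8 probes all were called higher with piroxicam and with robenacoxib, whereas 1 was called lower with carprofen. The second PPARD probe changed by -0.04 (adjusted p = 0.405) with carprofen. NFKB1, a subunit of the transcription factor that switches PTGS2 on, was called lower with piroxicam on its second probe (-0.31, adjusted p = 0.00143) and not on its first (-0.11, adjusted p = 0.137). Under spike-in scaling the MYC change with carprofen was -0.08 (adjusted p = 0.166). CXCL8 (0.23, adjusted p = 0.00327) and PPARD (0.19, adjusted p = 0.00111) were called higher with carprofen there, so none of these falls held on that scale. In that setting 76.3% of all tested probes were called with carprofen, 99.7% of them higher. The CXCL8 value with carprofen was -0.02 (adjusted p = 0.80) with normexp and quantile normalization and -0.01 (adjusted p = 0.876) in the authors' deposited value table. Under the slide block the calls of CXCL8 (-0.15) and PPARD (-0.13) with carprofen and of CXCL8 with robenacoxib (0.42, adjusted p = 0.0596) were lost. The cytokines IL1A and IL1B, known inducers of PTGS2, were well above background on no array, and IL6, CCL2 and PPARG on 2, 4 and 1 of the 12 at most, so these 5 were not tested.

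Among 539 named genes well above background on all 12 arrays, AKAP8, a nuclear anchoring protein, had the pattern most like that of PTGS2 (Pearson r = 0.968 over 12 arrays). TGM1, a transglutaminase of the skin barrier (r = 0.967), RAB5A, a GTPase of early endosomes (0.956), SELENOW, a selenoprotein (0.937), and CRYGS, a lens crystallin (0.906), followed. Of these, TGM1 changed about as much as PTGS2, with a geometric mean of 62.5 with piroxicam, 145 with carprofen and 109 with robenacoxib, against 95.5 in control (scaled signal). AKAP8 covered a narrower range, with 1846, 2153 and 2062 in the same order of drugs, against 2000 in control. The lowest correlations with PTGS2 were those of PLA2G7, an enzyme that degrades platelet-activating factor (r = -0.98), PDPN, a membrane mucin (-0.978), and NICN1 (-0.977). PLA2G7 averaged 10851 with piroxicam, 8194 with carprofen and 8893 with robenacoxib, against 9584 in control. These points share 3 slides and 4 groups, so the correlations describe these arrays.

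For the other members the likeness was weaker. COL6A3, a collagen chain (r = 0.81), and ADORA1, an adenosine receptor (0.77), were most like the brighter PTGS1 probe. The high PTGS1 value of 66.2 on piroxicam 3 entered these correlations, which were not computed without that array. The brighter PTGES probe was followed by GUCY1B1, a guanylate cyclase subunit (0.821), DDX39B, an RNA helicase (0.777), and RAB2A, a GTPase of vesicle traffic (0.705). PTGDS was most like CXCR2, a chemokine receptor (0.844), EPOR, the erythropoietin receptor (0.843), and SERPINA1, a protease inhibitor (0.80). Of the 3 genes like PTGDS none was called with any drug, whereas DDX39B was called lower with piroxicam (-0.25, adjusted p = 0.00253) and robenacoxib (-0.24, adjusted p = 0.00371).

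The summed signal of fibroblast markers also differed between the groups. Of 9 fibroblast genes 3 had named probes (COL1A1 and COL1A2, the chains of type I collagen, and DCN, a proteoglycan), and all 3 were well above background on all 12 arrays. Their summed scaled signal was 68731 to 72227 with piroxicam, 64919 to 68637 with carprofen and 70473 to 71525 with robenacoxib, against 74220 to 76521 in control, so all treated arrays lay below the controls. The fibroblast sum was mostly COL1A2, with unscaled signals of 130952 to 144662, against 21310 to 25011 for COL1A1 and 39.9 to 64.8 for DCN. Gene by gene, COL1A1 fell with carprofen (-0.19) and robenacoxib (-0.12) and was not called with piroxicam (adjusted p = 0.967), COL1A2 fell with piroxicam (-0.10) and carprofen (-0.16) and was not called with robenacoxib (adjusted p = 0.126), and DCN fell with piroxicam (-0.42) and robenacoxib (-0.35) and was not called with carprofen (adjusted p = 0.314). The summed melanocyte markers read 688 to 722, 658 to 679 and 749 to 768 in the same order of drugs, against 713 to 735 in control. This sum was mostly MITF, with unscaled signals of 1437 to 1659, against at most 73.4 for any other named melanocyte marker. MITF was called lower with carprofen (-0.13, adjusted p = 0.00797) and was not called with piroxicam or robenacoxib. MC1R was called with no drug (-1.39 with piroxicam, adjusted p = 0.0523). Carprofen had the lowest values of both sums and the highest PTGS2. Of the leukocyte genes CD4 and CD8A were well above background on all arrays and MS4A1 on none, and their summed signal overlapped between all groups (98.2 to 118 with carprofen, 80.7 to 112 in control). Of the endothelial genes VWF was well above background on all arrays and KDR on none, and none of 6 epithelial genes was named. The part of these markers in the PTGS2 and PTGES differences was not tested.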

How the data were processed

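The scanner files hold deposited spot intensity as read by Feature Extraction 10.7.3.1, with the local background removed and no normalization between arrays, per the file headers. The authors' deposited values, in a second file, look like log2 values (column medians of 7.67). The submitters' processing notes name limma 3.24.15; how background and scale were treated there is not given in the sources used here. RNA was purified from lysed cells and labelled together with spike-in transcripts, per the labels' protocols.

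Intensities were analysed in R 4.3.3 with limma 3.58.1 and data.table (version 1.17.8). Control spots were dropped, as were 164 outlier-flagged spots, spots of a probe were averaged, and log2 of the processed signal minus each array's 75th percentile was used. Tested were the 31993 probes that every array of 1 group or more (3 of 3) measured well above background; 5 of the 6 member probes passed this filter. One linear model (lmFit and eBayes, 8 residual degrees of freedom) covered all 12 arrays; tests were two-sided, each of 6 comparisons was adjusted by Benjamini-Hochberg over the 31993 probes, and the threshold was 0.05. A called probe has an adjusted p below it. No spot was saturated. The number of arrays limits the precision, and the script was tested on simulated data.

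Names came from RefSeq accessions matched to RefSeq's gene list for UU_Cfam_GSD_1.0, a dog assembly, from which no positions were taken; 1313 probes received 832 symbols. Where a gene has several tested probes, the one of highest mean (the brighter probe) stands for it. Named in the text are the members, tested pathway genes that pass against control, the genes with the highest (and for PTGS2 the lowest) Pearson r to a member, and marker genes of melanocytes, fibroblasts, epithelium, leukocytes and endothelium; 1 gene that this rule names is not reported here. The members and all lists were chosen with earlier results of these data known. For the normexp alternatives the spots' median signal was used in place of the planned mean signal, which is not among the columns used here; the offset was 50.

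Arrays of different groups share replicate numbers. Deviations from the group means of the 18 same-numbered pairs correlated at -0.45 to 0.20 (median -0.155, 3 of 18 over 0.1), so the numbers were not taken to pair the arrays. Other scalings, background corrections, filters, a slide block, within-slide fits, array weights and leaving out arrays were tried. Probe and gene sequences were not used here.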

Additional observations from a re-analysis of the deposited data

How the results depend on the processing

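PTGS2 kept its direction in all alternatives and in each of the 12 fits that left out 1 array (-0.52 to -0.45 with piroxicam, 0.45 to 0.50 with carprofen, 0.27 to 0.33 with robenacoxib). Its calls were lost with robenacoxib under the slide block (0.49) and with carprofen within slide 1 (0.51), where 1 array stands against 3, and for robenacoxib minus piroxicam within slide 3 (0.88); in the slide 1 fit 1 probe of the whole array passed, and within slide 3, where 3 robenacoxib arrays stand against 1 piroxicam array, 0 did by limma's adjusted p (7886 had an unadjusted p below 0.05). The lone array is assumed to vary like the others. Left-out arrays gave PTGS1 0.16 to 1.48, 0.17 to 0.55 and 0.64 to 1.04, PTGES -0.35 to -0.16, -0.16 to -0.02 and -0.42 to -0.27, and PTGDS -0.18 to 0.21, -0.54 to 0.17 and -0.66 to 0.08 with piroxicam, carprofen and robenacoxib; the dimmer PTGES probe gave -0.40 to -0.20, -0.25 to -0.05 and -0.56 to -0.36. Between drugs PTGS1 ranged from -1.11 to 0.21 (carprofen minus piroxicam) and -0.64 to 0.68 (robenacoxib minus piroxicam), PTGES from -0.17 to 0.01 (robenacoxib minus piroxicam) and PTGDS from -0.54 to 0.17, -0.66 to 0.08 and -0.44 to 0.35 (carprofen minus piroxicam, robenacoxib minus piroxicam, robenacoxib minus carprofen). Without piroxicam 3, PTGS1 passed with robenacoxib and PTGS2 for robenacoxib minus carprofen. The counts of called probes with 1 array left out were 6451 to 9455, 8069 to 10477 and 4624 to 7613 against control (the 4624 with robenacoxib without control 2), and 10233 to 11976 (carprofen minus piroxicam), 6867 to 9054 (robenacoxib minus piroxicam) and 1156 to 2384 (robenacoxib minus carprofen, 1156 without robenacoxib 2 and at most 1628 without carprofen 2, carprofen 3, robenacoxib 1 or robenacoxib 3).

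PTGES passed as the mean of both probes (-0.29 with piroxicam, -0.41 with robenacoxib), and its brighter probe passed with robenacoxib over probes well above background on all 12 arrays (-0.34, adjusted p = 0.0447). With the replicate number as a block the brighter probe passed with piroxicam (-0.25, adjusted p = 0.032) and robenacoxib (-0.34, adjusted p = 0.0157), and 1375 probes were called for robenacoxib minus carprofen; the block lost the PTGER4 call with robenacoxib (0.14, adjusted p = 0.0773) and moved no other count by over 1.5 times. The numbers do not pair the arrays.

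Signs turned as follows, mostly for values not called as reported. The falls of CXCL8 and PPARD with carprofen were called as reported, and both genes were called higher with spike-in scaling. With spike-in scaling PTGDS was 0.16, 0.08 and 0.02 with piroxicam, carprofen and robenacoxib, SLCO2A1 0.15, 0.22 and 0.14 and NFKB1 0.05, 0.26 and 0.22; with carprofen PTGER4 was 0.32, CXCL8 0.23, PPARD 0.19 and PTGES 0.27 (brighter) and 0.18 (dimmer); PTGER2 with robenacoxib was 0.24 and PTGES for robenacoxib minus piroxicam 0.05. With slide as a block PTGS1 was -0.39 with piroxicam, -2.17 with robenacoxib, 0.39 for carprofen minus piroxicam (also within slide 2) and -2.17 for robenacoxib minus carprofen; TNF was -0.24, -0.06 and -0.48, NFKB1 0.09, 0.02 and 0.17, and PTGER2 with robenacoxib 0.40; PTGDS was 0.13 and PTGES 0.10 for robenacoxib minus piroxicam (both also within slide 3) and 0.15 and 0.03 for robenacoxib minus carprofen. With normexp and the 75th percentile PTGDS was 0.02 with piroxicam, 0.12 with robenacoxib, 0.10 for robenacoxib minus piroxicam and 0.24 for robenacoxib minus carprofen, and PTGES 0.07 (dimmer, robenacoxib), 0.13 (robenacoxib minus piroxicam) and 0.04 (robenacoxib minus carprofen). PTGDS with piroxicam was also 0.03 with quantile normalization, 0.04 with normexp and quantile normalization, 0.07 in the authors' values, 0.11 with array weights (carprofen 0.06) and 0.41 without control 3 and piroxicam 3; for robenacoxib minus carprofen it was 0.12, 0.05 and 0.09 in the first 3, 0.05 with median scaling and 0 with flagged spots kept. SLCO2A1 with piroxicam was 0.01 after normexp with quantiles and 0.02 in the authors' table, where PTGER2 with robenacoxib was 0.01. PTGS1 for robenacoxib minus piroxicam was 0.34 with array weights and 0.68 without control 3 and piroxicam 3, where carprofen minus piroxicam was 0.21.

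Counts of called probes against control (piroxicam, carprofen, robenacoxib) were 13542, 24423 and 21611 with spike-in scaling, 5744, 5467 and 4576 with normexp and the 75th percentile, and 1628, 5231 and 451 with slide as a block, against 8946, 10488 and 7103 as reported. They were also 4105 with robenacoxib under median scaling, 6819 and 6470 with carprofen under quantile-normalized normexp values and those of the authors, and 4779 and 4663 with piroxicam and robenacoxib without control 3 and piroxicam 3. Carprofen minus piroxicam gave 6736 with normexp and the 75th percentile and 4554 within slide 2, against 11992; robenacoxib minus piroxicam gave 4658 with that normexp setting and 5644 with median scaling, against 8664. Robenacoxib minus carprofen gave 993 with median scaling, 210 with normexp and the 75th percentile and with only the arrays compared, 662 after normexp with quantiles, 555 in the authors' table, 1398 with no filter, 81 with slide as a block and 1737 without control 3 and piroxicam 3, against 2609. The cause of these moves was not tested. The dimmer PTGS1 probe was not well above background, and 3 arrays a group limit every comparison.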
